A study of Mus musculus with 4 samples.

Results

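Type 1 conventional dendritic cells (cDC1) of the mouse liver were described from 4 single-cell RNA-seq libraries, with cells chosen by a rule on measured counts. A barcode was kept when it had 500 to 6000 genes detected and when mitochondrial genes gave no more than 10% of its UMIs. Among kept cells, one was taken when Xcr1 and Clec9a together had at least 2 UMIs, when Cd209a, Siglech, Cd3e and Cd79a had 0, and when the Kupffer cell genes Clec4f, Vsig4 and Timd4 together had at most 2. The rule took 371 of 30362 kept cells, which were 91 of 7155 in WT, 130 of 6275 in YAPKO, 63 of 8638 in TAZKO and 87 of 8294 in DKO. The study asks what loss of YAP and TAZ in liver epithelium does to the cells of the liver. Each library comes from 1 mouse, with wild-type alleles (WT) or with floxed alleles of Yap (YAPKO), Taz (TAZKO) or both (DKO) recombined by Alb-Cre. Alb-Cre acts in hepatocytes and biliary cells, so the dendritic cells of all 4 livers carry intact alleles. Hepatocytes and nonparenchymal cells were isolated separately and mixed before loading, and the labels list no treatment.

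cDC1 take up material from dying cells and present its antigens on MHC class I to CD8 T cells. XCR1 is the receptor for the chemokine XCL1, CLEC9A binds actin filaments exposed by dead cells, and NAAA is a lysosomal amidase. TLR11 senses a profilin of protozoa, and the transcription factors IRF8 and BATF3 are needed for the development of these cells.

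The label was first checked against its 4 markers. Xcr1, Naaa and Tlr11 met in one set of the chosen cells, and another set held Clec9a with genes of liver endothelial cells. Of the 371 cells, 185 carried at least 10 UMIs of a list of 9 endothelial genes (Stab2, Clec4g, Kdr, Ptprb, Lyve1, Oit3, Bmp2, Egfl7 and Cldn5), and 186 carried fewer. No chosen cell had between 5 and 9 such UMIs, and the most in any cell under 10 was 3. The cells with at least 10 endothelial UMIs numbered 57 in WT, 76 in YAPKO, 22 in TAZKO and 30 in DKO, or 62.6%, 58.5%, 34.9% and 34.5% of the chosen cells. Their median number of endothelial UMIs was 99, 154, 66 and 108 in the same order.

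Among the 185 cells with endothelial genes, 165 had Clec9a without Xcr1, 20 had both and 0 had Xcr1 alone, and Naaa was found in 28. Among the 186 others, 163 had both genes, 10 Xcr1 alone and 13 Clec9a alone. Naaa was found in 177 of these, Tlr11 in 106, the cross-presentation gene Wdfy4 in 178, and at least 10 UMIs of the MHC class II gene H2-Aa in 185. For most cells with endothelial genes, the data therefore go against the label: they meet the rule by Clec9a alone. These cells are called here by that description, and comparisons between cell types take all chosen cells first, while most comparisons between libraries leave these cells out. The split at 10 endothelial UMIs was chosen after seeing the data, so values for the 186 cells are descriptions.

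Most of the 20 cells with both endothelial genes and Xcr1 also carried the other cDC1 genes. Their median sum over 20 cDC1 genes was 168 UMIs in WT, 122 in YAPKO, 134 in TAZKO and 148 in DKO, against 136, 147, 110.0 and 110.0 in the cells under 10 endothelial UMIs. The 165 cells with endothelial genes and no Xcr1 had medians of 2, 4, 1 and 4. The 20 cells with Xcr1 had median depths of 19798, 23148, 15212 and 19890.0 UMIs. The exception among them was 1 TAZKO cell with 9 UMIs of the 20 genes and 2905 UMIs in all. For the 20 cells, 2 cells in 1 droplet and 1 cell with both sets of genes cannot be told apart.

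**Figure D1:**
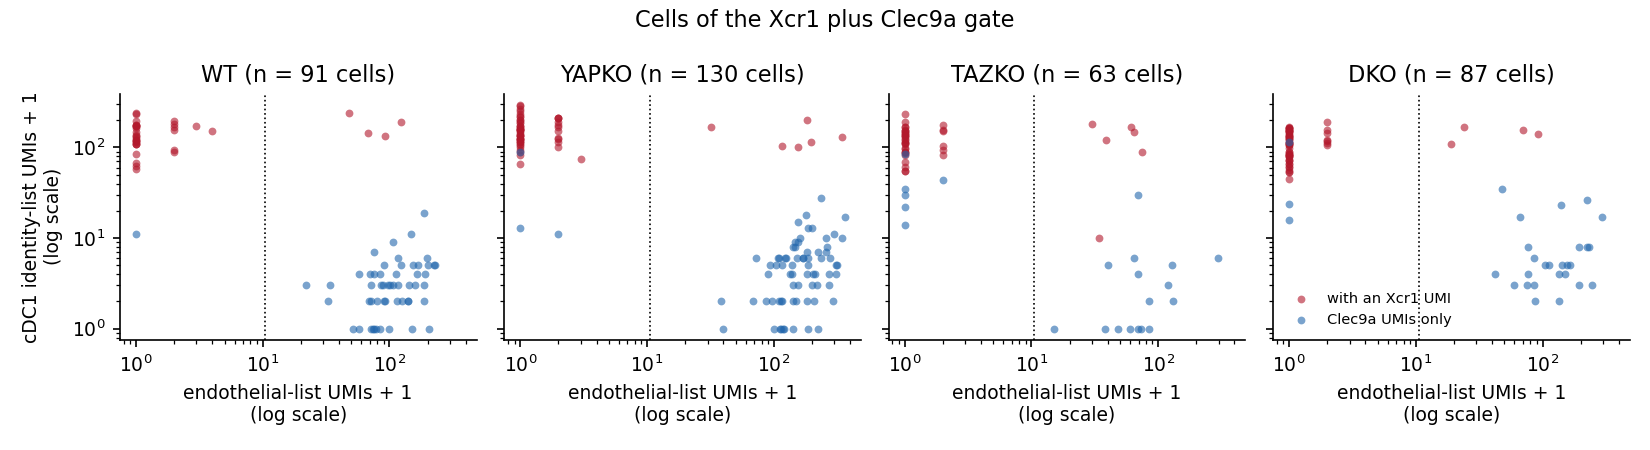
Each point is 1 of the 371 chosen cells, with UMIs of 9 endothelial genes on the x axis and UMIs of 20 cDC1 genes on the y axis (log scales, 1 added), red where the cell has an Xcr1 UMI and blue where it has Clec9a alone. The dotted line at 10 endothelial UMIs parts 186 cells from 185, and 165 of the 185 to its right have no Xcr1 UMI.

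Near the threshold of the rule most cells carried endothelial genes. Of 155 cells with exactly 2 UMIs of Xcr1 and Clec9a, just inside the threshold, 137 (88.4%) had at least 10 endothelial UMIs and 19 had Naaa. This share was 95.7% in WT, 95.2% in YAPKO, 66.7% in TAZKO (12 of 18) and 75.9% in DKO (22 of 29). Of 916 cells with 1 UMI, just outside it, 886 (96.7%) had endothelial genes, 44 had Naaa and 7 had Xcr1. Of 152 cells with 6 or more UMIs, 15 (9.87%) had endothelial genes and 151 had Naaa. Over the 4 libraries together, a higher count of the marker pair thus went with more Naaa and fewer endothelial genes. Single libraries did not follow this at each step. In TAZKO the endothelial share was 66.7% at 2 UMIs and 83.3% at 3. In WT and TAZKO it was 0% at 4 to 5 UMIs and 12.1% and 14.3% at 6 or more.

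**Figure D2:**
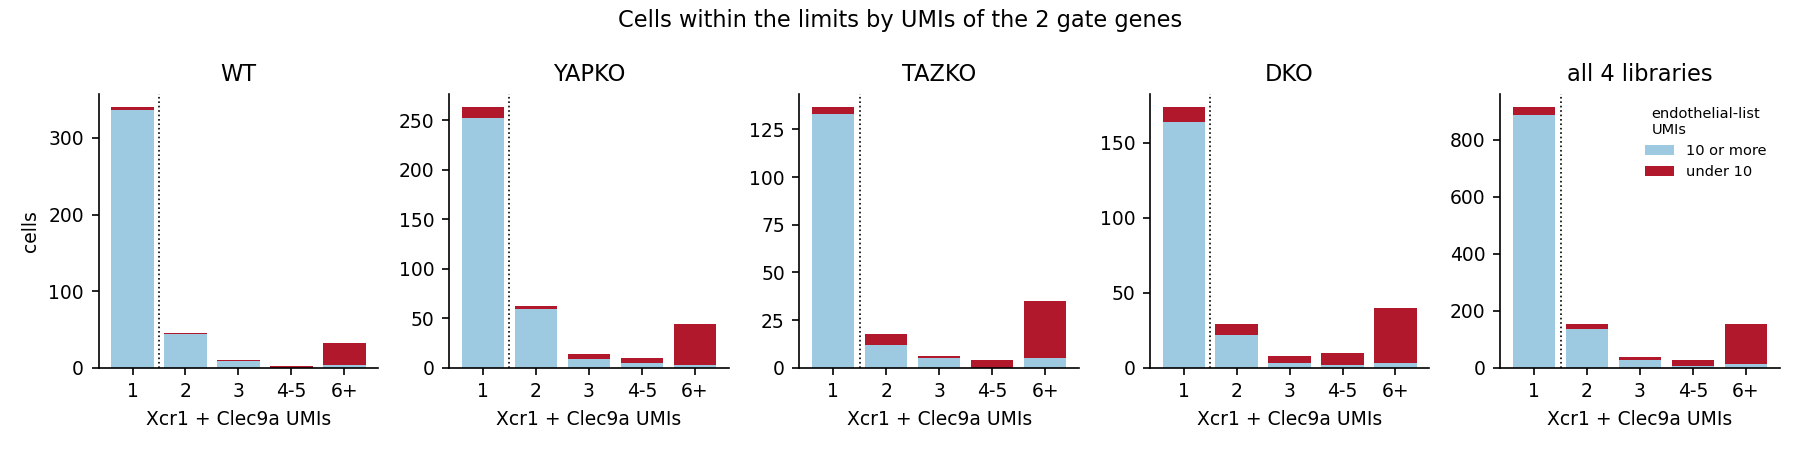
Bars give the number of kept cells that meet the other limits, by their UMIs of Xcr1 plus Clec9a (x axis), split into cells with at least 10 and under 10 endothelial UMIs; the dotted line is the threshold of 2. At 1 UMI 886 of 916 cells have endothelial genes, and at 6 or more UMIs 15 of 152 do.

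Clec9a was also counted in cells grouped by endothelial genes. This group had at least 10 endothelial UMIs, under 10% hepatocyte UMIs and no UMI of the leukocyte gene Ptprc. Cells that met the cDC1 rule were not removed from it, so part of its Clec9a can come from them. Clec9a was 32.6 CPM in WT, 28.3 in YAPKO, 18.7 in TAZKO and 19.7 in DKO, while Xcr1 had 0, 0, 1 and 0 UMIs. The limit on Ptprc can leave out droplets that also hold a leukocyte, so the Xcr1 counts are a description. B cells had Clec9a at 0, 0.993, 0.920 and 2.34 CPM. The neighbouring genes Clec1b and Clec1a were abundant in the endothelial cells, with 722, 699, 251 and 534 CPM for Clec1b and 162, 259, 155 and 235 CPM for Clec1a. In release M21 of GENCODE, Clec9a (chromosome 6, 129408862 to 129424763, plus strand) overlaps the end of Clec1b (129397297 to 129409335, plus strand) by 474 bases, of which 184 are exon bases of both. Clec1a lies on the minus strand 8 bases beyond the other end of Clec9a. Whether reads of these neighbours were counted as Clec9a was not tested, because the matrices hold no reads.

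Promoters of the 4 marker genes show what precedes each start site, and that of Clec9a lies inside the gene body of Clec1b. Each run below holds the 250 bases before the RefSeq start on GRCm38.p6, 5′ to 3′ on the strand of the gene: Xcr1 chr9:123862030-123862279 (minus), Clec9a chr6:129408612-129408861 (plus), Tlr11 chr14:50357664-50357913 (plus) and Naaa chr5:92278182-92278431 (minus). Capitals mark matches on either strand to 3 motifs. The first is TTTC and TGA with any 4 bases between and the second GAAATGA, both composite sites of AP-1 factors such as BATF3 with an IRF. The third is GAAA, any 2 bases and GAAA, an IRF site.
Xcr1: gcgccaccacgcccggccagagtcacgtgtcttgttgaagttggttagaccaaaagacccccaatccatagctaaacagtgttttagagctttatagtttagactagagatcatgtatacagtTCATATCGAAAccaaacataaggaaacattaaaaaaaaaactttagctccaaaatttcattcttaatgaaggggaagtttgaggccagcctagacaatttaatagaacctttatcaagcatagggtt
Clec9a: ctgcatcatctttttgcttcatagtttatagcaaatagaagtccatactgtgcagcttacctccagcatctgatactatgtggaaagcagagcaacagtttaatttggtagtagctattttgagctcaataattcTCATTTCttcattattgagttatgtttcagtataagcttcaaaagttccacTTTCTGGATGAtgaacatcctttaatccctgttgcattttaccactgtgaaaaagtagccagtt
Tlr11: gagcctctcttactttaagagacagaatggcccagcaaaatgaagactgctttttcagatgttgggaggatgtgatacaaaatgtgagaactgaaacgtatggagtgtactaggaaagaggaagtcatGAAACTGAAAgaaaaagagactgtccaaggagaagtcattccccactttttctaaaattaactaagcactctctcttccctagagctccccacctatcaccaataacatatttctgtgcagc
Naaa: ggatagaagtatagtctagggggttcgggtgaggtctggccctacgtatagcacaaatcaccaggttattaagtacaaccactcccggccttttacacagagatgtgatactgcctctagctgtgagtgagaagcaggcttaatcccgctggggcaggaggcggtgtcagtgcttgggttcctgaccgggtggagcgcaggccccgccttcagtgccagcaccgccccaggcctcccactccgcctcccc
The capitals are the first motif in Xcr1, the first and second in Clec9a and the third in Tlr11, and Naaa has none. Over 32851 promoters, 3.82% held the first motif, 4.64% the second and 2.98% the third. Of the 18 cDC1 genes with a promoter in the reference (of 22 sought), 3 held the first (Gcsam, Xcr1 and Clec9a), 2 the second (Tlr12 and Clec9a) and 2 the third (Tlr11 and Ifi205). A further 2 motifs each matched 1 gene: the AP-1 site TGANTCA (6.75% of promoters) Havcr2, and the ETS and IRF site of GGAA, any 2 bases and GAAA (2.30%) Cd8a. A match is a description and no measure of binding.

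The deleted genes themselves were almost absent from cDC1. In the 186 cells under 10 endothelial UMIs, Yap1 had 0 UMIs in WT, 0 in YAPKO, 1 in TAZKO and 0 in DKO, and Wwtr1, which encodes TAZ, had 1, 2, 0 and 0. Over all chosen cells Yap1 was 17.3, 17.5, 5.57 and 19.7 CPM and Wwtr1 44.7, 78.6, 23.7 and 38.5 CPM, and nearly all of these UMIs lay in the cells with endothelial genes. In hepatocytes, where Alb-Cre acts, Yap1 was 20.9, 4.23, 46.7 and 4.34 CPM and Wwtr1 5.10, 12.6, 1.15 and 1.85 CPM, so that each gene was low in the libraries labelled with its deletion. In endothelial cells Yap1 was 41.8, 41.3, 60.9 and 41.2 CPM and Wwtr1 151, 163, 148 and 167 CPM, with no loss in the knock-out libraries.

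UMIs of Hippo kinases and adaptors were nevertheless counted in the 186 cells. Of a list of 15 Hippo genes, 10 were detected in WT, 12 in YAPKO, 11 in TAZKO and 11 in DKO, with sums of 318, 307, 472 and 386 CPM. Detected means at least 1 UMI, with no background level subtracted. The detected genes include Wwtr1 in WT and YAPKO and Yap1 in TAZKO, at the 1 or 2 UMIs given above. The most abundant were Mob1a (125, 120.3, 192 and 157 CPM), an adaptor of the LATS kinases, and Stk4 (72.3, 71.7, 139 and 91.1 CPM), which encodes the kinase MST1. The 6 YAP target genes had 1, 4, 4 and 14 UMIs together, of which Axl, a receptor tyrosine kinase, gave 1, 3, 2 and 12. In DKO 1 cell held 7 of the 14. All intervals on levels, ratios and shares given here cover counting error only.

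The chosen cells were a small share of each library, at 1.27% of kept cells in WT (95% interval 1.03 to 1.56), 2.07% in YAPKO (1.73 to 2.46), 0.729% in TAZKO (0.561 to 0.932) and 1.05% in DKO (0.841 to 1.29). Without the cells with endothelial genes the shares were 0.475% (0.329 to 0.663), 0.861% (0.647 to 1.12), 0.475% (0.341 to 0.643) and 0.687% (0.521 to 0.889). YAPKO was highest with either set, while the gap between WT and TAZKO was present only with the endothelial-marker cells included. Shares also depend on cell isolation and on the mixing of fractions.

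The chosen cells were compared with cells taken by Cd209a (cDC2, 32, 81, 63 and 122 cells in WT, YAPKO, TAZKO and DKO) and by Siglech (plasmacytoid dendritic cells, pDC, 39, 79, 97 and 159 cells). Of the cells taken by the 3 rules together, the cDC1 rule gave 56.2% in WT (48.2 to 63.9), 44.8% in YAPKO (39.0 to 50.8), 28.3% in TAZKO (22.4 to 34.6) and 23.6% in DKO (19.4 to 28.3). These shares count the cells with endothelial genes, which for the most part do not carry the cDC1 genes. With cells under 10 endothelial UMIs alone under all 3 rules they were 36.6%, 29.7%, 25.2% and 19.9%. WT was highest and DKO lowest both times. Cells with at least 10 endothelial UMIs were also found among cDC2 (4, 12, 17 and 18) and pDC (8, 20, 21 and 34).

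Compared with cDC2, the chosen cells had more RNA of the transcription factor gene Irf8 and of Tlr3, which encodes an endosomal RNA sensor. RNA of Cst3, which encodes the protease inhibitor cystatin C, and of genes for a set of cDC1 surface proteins was also higher. cDC2 showed the lectins Clec10a and Mgl2, the transcription factor Irf4, the cytokine receptor Csf1r and monocyte genes such as Lyz2 at higher levels. With the chosen cells held to both markers, 12 MHC class II genes had a median log2 fold change of -0.05, with 3 called lower and 1 higher. By edgeR on sums per library, 917 of 9720 genes tested were higher in the chosen cells (9.43%) and 793 lower (8.16%) at adjusted p under 0.05.

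Levels of the chosen cells beside cDC2 and pDC are sums over all 371, the cells with endothelial genes included, so they are not levels of cDC1 alone. Irf8 was 1033 CPM in the chosen cells against 25.5 in cDC2 of WT, 869 against 43.5 in YAPKO, 1405 against 113 in TAZKO and 1132 against 53.4 in DKO. Cst3 was 21870.4 against 5137, 19639 against 4792, 17081 against 4354 and 19625 against 4958 CPM, Naaa 842 against 76.6, 832 against 119, 808 against 94.3 and 778 against 85.2, and Tlr3 214 against 2.55, 156 against 10.6, 202 against 6.74 and 200.1 against 13.8. All 4 genes were higher in the chosen cells in all 4 libraries. Their edgeR log2 fold changes were 4.24 for Irf8 (adjusted p = 4.24e-06), 1.94 for Cst3 (2.47e-05), 3.04 for Naaa (4.24e-06) and 4.20 for Tlr3 (8.42e-06). Tlr11 was 52.8, 37.3, 61.2 and 62.0 CPM in the chosen cells and 0, 3.87, 10.1 and 12.1 in cDC2, higher in the chosen cells in all 4 libraries (edgeR log2 fold change 2.80, adjusted p = 4.51e-04).

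Of the 20 cDC1 genes 19 were higher in the chosen cells, with a median log2 fold change of 3.65 against -0.01 over all genes tested. The one not called was Havcr2, which encodes TIM-3 (edgeR log2 fold change 0.05, adjusted p = 9.17e-01, higher in 3 libraries). Wdfy4, needed for cross-presentation of cell-bound antigen, was 231, 235, 548 and 335 CPM in the chosen cells and 74.0, 63.8, 149.9 and 88.7 in cDC2 (edgeR log2 fold change 1.76, adjusted p = 5.31e-05, 4 of 4 libraries). Batf3 (0.72) and Id2 (0.90) differed less, since cDC2 had 89.9 to 148 CPM of Batf3 and 515 to 623 CPM of Id2.

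Gate genes and genes of lists of non-dendritic cells were left out of naming. The 12 genes with the largest fitted fold changes among the others within the naming limits included Gcsam of the cDC1 list, Gpr141b, Gramd2, Nck2 and 1700009J07Rik. These 5 had 0 UMIs in cDC2 of every library, so that their order is not given. Gcsam, a signalling protein of lymphoid cells, was 125, 100.1, 119.7 and 112 CPM in the chosen cells, and the orphan receptor gene Gpr141b was 92.5, 45.2, 80.7 and 107 CPM. Against a floor of 3 UMIs over the 4 cDC2 sums together, these were at least 118-fold and at least 80.2-fold higher, and Gramd2, Nck2 and 1700009J07Rik at least 23.6-fold, 15.4-fold and 11.7-fold. The median of the 20 cDC1 genes was also 3.65 with Gcsam at this bound. Cd207, which encodes langerin, was 122, 61.1, 39.0 and 79.9 CPM against 0, 0, 1.68 and 0.861 (edgeR log2 fold change 6.46, adjusted p = 1.06e-05, 4 of 4 libraries). The integrin gene Itgae, which encodes CD103, had a log2 fold change of 5.34, the nucleotide sugar receptor gene P2ry14 5.31 and the endocytic receptor gene Ly75 (DEC-205) 5.26. Snx22 (5.34), Ttc39a (5.65) and Gm38410 (5.67) completed the 12.

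Of 13 cDC2 genes tested 11 were lower in the chosen cells and 1 was higher, with a median log2 fold change of -2.80. With the chosen cells held to at least 1 UMI of each marker, 11 of 12 tested were lower and 0 higher (median -3.90). Clec10a was 222, 535, 75.8 and 227 CPM in cDC2 and 0, 1.13, 0 and 5.64 in the chosen cells, Mgl2 393, 574, 182 and 257 against 0, 19.8, 0 and 0.940, and Irf4 5.10, 14.5, 28.6 and 34.4 against 1.02, 0.565, 0 and 0. All were lower in the chosen cells in all 4 libraries. The edgeR log2 fold changes were -7.45 for Clec10a (adjusted p = 7.27e-06), -6.20 for Mgl2 (2.34e-05) and -5.16 for Irf4 (5.98e-04). The lectin gene Cd209d (-7.56), the transporter gene Abca9 (-7.24), the elastase gene Mmp12 (-5.75) and Skint3 (-5.46) were also among the 12 lowest within the naming limits. The rest were Ifitm6 (-5.30), Sirpb1a (-5.15), Gm9733 (-5.10), the fractalkine receptor gene Cx3cr1 (-5.05) and Klra17 (-5.03). All 5 monocyte genes tested were lower in the chosen cells, among them Lyz2 (-1.65), which was 453, 909, 437 and 484 CPM against 1495, 1582, 1297 and 2181.

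**Figure D3:**
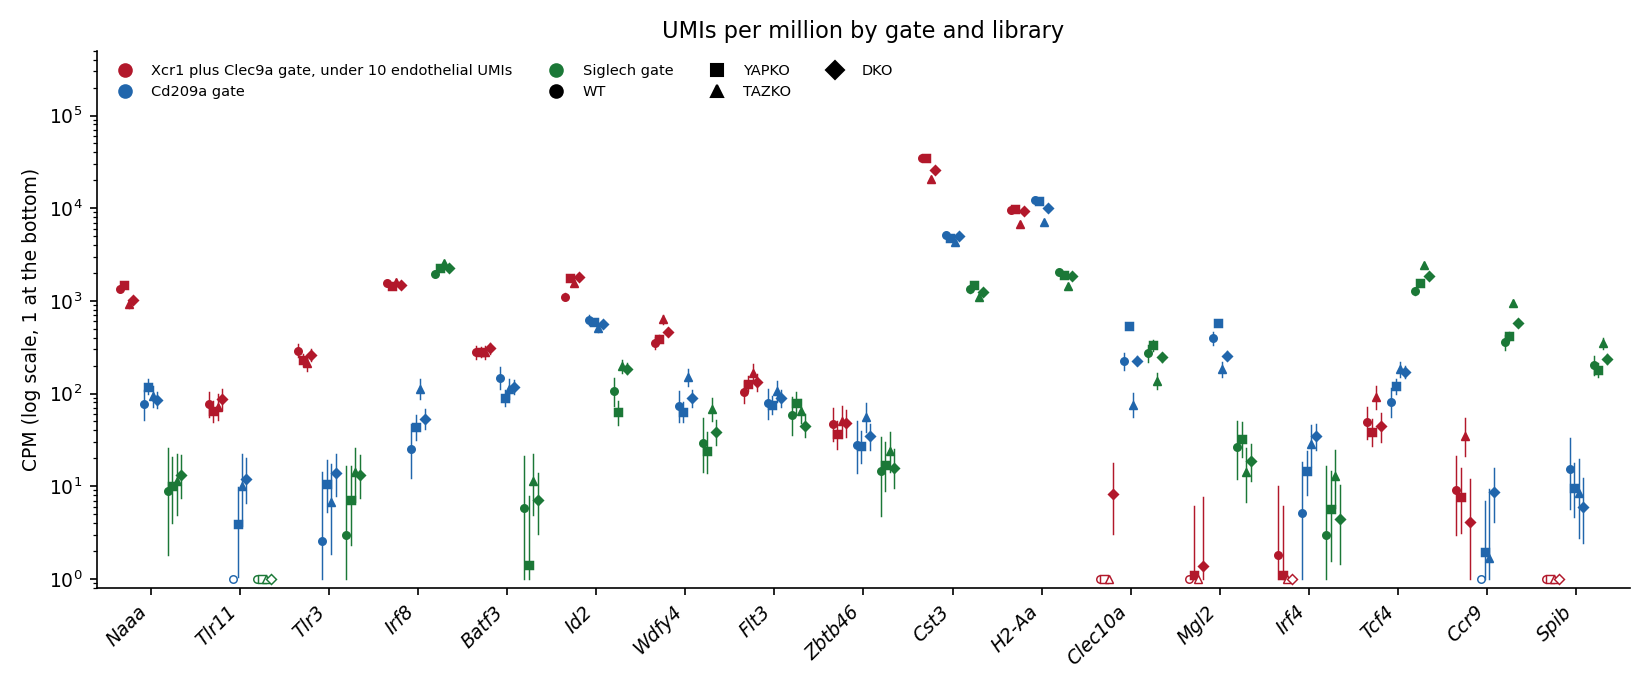
CPM on a log axis, with exact 95% intervals, of 17 marker genes in cDC1 under 10 endothelial UMIs, in cDC2 and in pDC of the 4 libraries, with open symbols at 1 for 0 UMIs. Irf8 is between 1449.6 and 1609 CPM in these cDC1 and between 25.5 and 113 in cDC2, and Tlr11 is 0 in pDC of all 4 libraries.

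Genes of other cell types moved with this comparison. All 9 endothelial genes were higher in the chosen cells than in cDC2 (median 1.81), all 9 were detected in every library, and their sums were 6472, 7448, 2331 and 3515 CPM, with Clec4g or Ptprb most abundant. Their part in the result was not tested. In the fit held to the 183 cells with at least 1 UMI each of Xcr1 and Clec9a, an alternative chosen after seeing the data, 0 of the 9 endothelial genes were higher and 3 were lower (median -0.95). Of 7898 genes tested there, 688 were higher (8.71%) and 760 lower (9.62%), and all 20 cDC1 genes were higher, with a median of 4.36. Havcr2 was then called too (edgeR log2 fold change 0.84, adjusted p = 1.17e-02; per library 116, 119, 163 and 134 CPM in all chosen cells).

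MHC class II presentation depended on which cells were taken. With all chosen cells, 10 of 12 class II genes were lower than in cDC2 (median -0.80). With the 183 cells, 3 were lower and 1 higher (median -0.05), and H2-Aa moved from -0.82 (edgeR adjusted p = 1.78e-02, lower in 4 of 4 libraries) to -0.07 (6.84e-01). Cd74, the invariant chain, moved from -0.79 to -0.05. Of 19 class I presentation genes 5 were higher and 2 lower in all chosen cells, and 8 and 2 in the 183 cells. Over all genes tested 9.43% were higher and 8.16% lower with all chosen cells, and 8.71% and 9.62% with the 183 cells. Rab43, a GTPase of cross-presentation, was higher in both fits (log2 fold change 0.81 and 1.56), and so was Cxcl9, a chemokine for T cells (2.53 and 2.93). Of 15 cell division genes none was called in either fit. Without the YAPKO library the counts fell to 236 higher and 390 lower, and DESeq2 gave 602 and 524.

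Compared with pDC, the chosen cells had more MHC class II, more of the inhibitor Id2 and the activator Batf3, and more of the stress genes Fos and Hspa1a. pDC had more of the pDC factors Tcf4 and Spib, of the RNA sensor Tlr7 and, against all chosen cells, of Irf8. By edgeR, 1036 of 9639 genes tested were higher in the chosen cells (10.7%) and 1129 lower (11.7%). In the 183 cells with both markers the counts were 1758 (19.9%) and 1749 (19.8%) of 8814. Without the DKO library the number of genes higher was 676.

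Naaa was 842, 832, 808 and 778 CPM in the chosen cells and 8.83, 9.93, 11.4 and 13.3 in pDC, and Batf3 186, 160.0, 237 and 228 against 5.88, 1.42, 11.4 and 7.08. H2-Ab1 was 7062, 6446, 6214 and 7643 CPM against 1724, 1558, 1135 and 1441. Each was higher in the chosen cells in all 4 libraries, with edgeR log2 fold changes of 6.30 for Naaa (adjusted p = 1.50e-07), 5.14 for Batf3 (8.70e-07) and 2.38 for H2-Ab1 (2.91e-06). Irf8 was 1033, 869, 1405 and 1132 CPM against 1951, 2274, 2535 and 2279, lower in the chosen cells in all 4 libraries (edgeR log2 fold change -0.90, adjusted p = 1.38e-03). In the 183 cells its fold change was -0.10 (edgeR adjusted p = 3.45e-01), so that a difference in Irf8 was not detected there.

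Of the 20 cDC1 genes 16 were higher than in pDC and 2 lower (median 4.29), and the lower ones were Irf8 and Cd8a (-2.35). Tlr12, which acts with TLR11, was not called (edgeR log2 fold change -0.50, adjusted p = 1.39e-01, lower in 4 of 4 libraries), nor was the adhesion gene Cadm1 (0.33, adjusted p = 7.01e-01 by edgeR, higher in 1 library). Tlr11, Gpr141b, Snx22, Hepacam2, Pianp and Gm12551 had 0 UMIs in pDC of every library. Over the 4 pDC sums together they were at least 48.2-fold, 72.5-fold, 61.3-fold, 39.8-fold, 45.9-fold and 33.2-fold higher in the chosen cells. With genes at 0 placed at their bound the median of the cDC1 genes was again 4.29.

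All 10 pDC genes were lower in the chosen cells (median -6.07, unchanged with genes at their bound). Spib was 203, 179, 347 and 237 CPM in pDC and 0 in the chosen cells of every library, at least 371-fold lower over the 4 sums together. Gm30211 and A530030E21Rik were also 0 in the chosen cells, each at least 125-fold lower. Cox6a2 (-9.76), Ly6d (-9.07) and the muscle enzyme gene Pgam2 (-9.03) completed the 6 lowest by fitted fold change within the naming limits. Of 7 genes shared by conventional dendritic cells 6 were higher and Bcl11a, a factor of pDC development, was lower (-3.73).

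Over all genes tested 10.7% were higher and 11.7% lower than in pDC, and 19.9% and 19.8% in the 183 cells. Of 12 class II genes 9 were higher and 1 lower (11 and 0 in the 183 cells). Of 17 immediate early and heat shock genes 11 were higher (16 in the 183 cells), among them Fos (2.23) and Hspa1a (2.48). Of 15 cell division genes 4 were higher (14 in the 183 cells). Mki67 was 85.4, 58.8, 91.8 and 133 CPM in the chosen cells and 73.6, 56.7, 9.95 and 1.77 in pDC (edgeR log2 fold change 1.85, adjusted p = 8.41e-02, higher in 4 of 4 libraries; 2.57 and 1.94e-03 in the 183 cells). Of the 9 endothelial genes 6 were higher in all chosen cells and 9 lower in the 183 cells, and of 11 hepatocyte genes 2 and 10 were lower. Their part in the result was not tested.

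Between libraries, cDC1 under 10 endothelial UMIs had near equal sums of the 20 cDC1 genes, while single members such as Cd8a, Id2, Wdfy4 and Naaa differed. TAZKO had the lowest MHC class II and Cst3 and the highest chemokine and interferon-stimulated genes, and WT had the highest Hspa1a, Hspa1b and Dnajb1. The chemokine and interferon-stimulated lists share Cxcl9 and Cxcl10. TAZKO was also higher than WT in the pDC list (log2 ratio 0.55, 0.31 to 0.79) and in the T cell and NK cell lists. The part of these genes in the result was not tested. Each knock-out library is set beside the same WT library, so that a value peculiar to that WT mouse enters all 3 comparisons. No test between genotypes was made.

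Xcr1 was 504 CPM in WT, 416 in YAPKO, 518 in TAZKO and 477 in DKO in these cells, Clec9a 221, 186, 298 and 269, Naaa 1339.7, 1479, 925 and 1014, and Tlr11 77.7, 65.1, 72.1 and 86.9. Irf8 was 1577, 1449.6, 1609 and 1475 CPM and Batf3 280.2, 281, 279 and 309. Apart from Naaa, which was lower in TAZKO (log2 ratio to WT -0.53, 95% interval -0.70 to -0.37) and DKO (-0.40, -0.55 to -0.25), each stayed within 1.35-fold of WT. For Xcr1 and Clec9a this is a description, since the rule chose the cells by their UMIs. The share of cells with a Naaa UMI was 97.1%, 94.4%, 90.2% and 98.2% at median depths of 15694, 15265, 12328 and 12468 UMIs. In B cells it was 6.29%, 7.59%, 5.95% and 3.38% at 2968, 2914, 2913 and 2247 UMIs.

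The sum of the 20 cDC1 genes was 8382, 8932, 8264 and 8446 CPM. Against WT its log2 ratio was 0.09 in YAPKO (0.04 to 0.14), -0.02 in TAZKO (-0.08 to 0.04) and 0.01 in DKO (-0.04 to 0.07). Of 19 members with at least 50 UMIs, 1 was past 2-fold in each library, and it was Cd8a, which marks cDC1 of lymphoid tissue, at 75.9, 26.5, 18.5 and 15.2 CPM. Over all genes with at least 50 UMIs, 1.09%, 2.30% and 1.33% were past 2-fold lower. Cd8a was found in 4, 7, 5 and 6 cells, and 40.5% of its WT UMIs lay in 1 cell. Id2 was higher in each knock-out library (1110.1, 1749.7, 1570.2 and 1794 CPM, log2 ratios 0.66, 0.50 and 0.69) and Wdfy4 in TAZKO (351, 391, 634 and 461 CPM, log2 ratio 0.85, 0.60 to 1.12), none past 2-fold. With all chosen cells the log2 ratio of the sum was -0.09, 0.39 and 0.22, while the share of cells with endothelial genes differed between the libraries.

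MHC class II genes summed to 59592, 56654, 36707 and 50160.2 CPM, highest in WT and lowest in TAZKO. Against WT the log2 ratio was -0.07 in YAPKO (-0.09 to -0.05), -0.70 in TAZKO (-0.72 to -0.67) and -0.25 in DKO (-0.27 to -0.23), and 2 of 12 members were past 2-fold lower in TAZKO, H2-DMb2 (-1.52) and H2-Oa (-1.30), against 63 of 2739 genes (2.30%). Cd74 was 25411, 22679, 14049 and 19103 CPM and H2-Aa 9642, 9775, 6714 and 9313. B cells of TAZKO were also lowest in Cd74 (14081, 15005, 7684 and 10539.8 CPM) and in H2-Aa (3526, 4198, 2442 and 3323 CPM). Cst3 was 34992, 34889.5, 20622 and 25824 CPM in cDC1, and its level in TAZKO was also the lowest in endothelial cells (692, 658, 353 and 724 CPM) and in hepatocytes (225, 219, 53.5 and 260.0 CPM). TAZKO was thus lowest in Cst3 in several cell types, and in Cd74 and H2-Aa in cDC1 and B cells. With all chosen cells the class II sums were 36872, 32755, 30921 and 38032 CPM, so that DKO was highest, and the log2 ratios were -0.17 in YAPKO, -0.25 in TAZKO and 0.04 in DKO (0.02 to 0.07).

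Class I presentation genes summed to 10175, 10253, 8809 and 8170.3 CPM, with log2 ratios of 0.01, -0.21 and -0.32 and no member past 2-fold. H2-D1 was lower in TAZKO (-0.73) and DKO (-0.74) at 2226, 2021, 1346 and 1331 CPM, and in B cells it was 1665, 2010.1, 1111 and 1417 CPM. Receptors for growth factors and interferons summed to 1271, 1391, 1106 and 1272 CPM with no member past 2-fold, and Flt3, the receptor that dendritic cell precursors depend on, was 105, 128, 168 and 132 CPM. Sensing genes summed to 1314, 1255, 1162 and 1206 CPM, and Tlr3 was 289, 231, 211 and 262 CPM.

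Chemokines for T cells were highest in TAZKO and DKO and lay in few cells. Cxcl9 had 21 UMIs in WT, 75 in YAPKO, 366 in TAZKO and 231 in DKO (38.0, 82.7, 677 and 319 CPM), with log2 ratios of 1.12 (0.41 to 1.90), 4.16 (3.52 to 4.87) and 3.07 (2.42 to 3.79). It was found in 4, 7, 10 and 10 cells, and the highest cell held 81.0%, 61.3%, 36.1% and 78.8% of the UMIs. Cxcl10 had 0, 1, 64 and 87 UMIs, at least 21.8-fold higher in TAZKO and at least 22.1-fold higher in DKO than the floor of 3 UMIs in WT, in 2 cells of each. Ccl5 had 1, 0, 243 and 31 UMIs, with a log2 ratio of 7.96 (5.47 to 13.27) in TAZKO and 4.56 (1.98 to 9.91) in DKO, from 3 and 4 cells. The T cell list had log2 ratios of 3.49 (0.71 to 8.92) in TAZKO and 1.19 (-2.44 to 6.91) in DKO. For the NK cell list they were 3.62 (0.86 to 9.04) and 2.93 (0.12 to 8.37). In TAZKO 1 cell held 8 of 11 T cell UMIs and 1 cell 10 of 12 NK cell UMIs. The part of these genes in the level of Ccl5 was not tested. Of the UMIs of 20 cytokines and chemokines, 1 cell held 20.7% in WT, 12.9% in YAPKO, 20.4% in TAZKO and 42.5% in DKO (278 of 654). This list had log2 ratios of -0.10 (-0.31 to 0.12), 1.69 (1.51 to 1.88) and 0.72 (0.52 to 0.92). With all chosen cells they were 0.59 (0.46 to 0.73), 1.22 (1.08 to 1.37) and 0.55 (0.40 to 0.70), so that the sign in YAPKO depended on the cells taken.

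In TAZKO, 3 cells gave most of the genes of mature dendritic cells. They held 209, 136 and 77 of the 632 UMIs of that list, with 25, 18 and 0 UMIs of the migration receptor Ccr7 and 115, 0 and 72 of Ccl5. The second held 53 of the 56 TAZKO UMIs of Il12b, a subunit of interleukin 12. Each of the 3 had 2 Clec9a UMIs, 0 Xcr1 and 0, 0 and 2 Naaa, so that they met the rule at its threshold. Their sums over the 20 cDC1 genes were 43, 29 and 13 UMIs. The log2 ratio of the mature list in TAZKO was 1.46 (1.24 to 1.68), and in cells with at least 1 UMI each of Xcr1 and Clec9a it was -0.16, so the call rests on such cells. Ccr7 UMIs were absent from the 34, 54 and 57 cells of WT, YAPKO and DKO, while 40.4%, 35.1%, 30.6% and 31.3% of B cells had one.

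Interferon-stimulated genes summed to 1634, 1482, 2883 and 1538 CPM, with log2 ratios of -0.14 (-0.26 to -0.02), 0.82 (0.70 to 0.94) and -0.09 (-0.22 to 0.04), and 1 cell held 20.7% of the TAZKO sum and 28.3% of the DKO sum. Over all chosen cells the ratios were 0.10 (0.02 to 0.18), 0.38 (0.29 to 0.47) and -0.26 (-0.36 to -0.17). This list also holds Cxcl9 and Cxcl10 of the chemokine list. In cells under 10 endothelial UMIs they had 366 and 64 UMIs in TAZKO and 21 and 0 in WT. Their part in the list ratios was not tested. Ifi44 was 28.9, 49.6, 179 and 15.2 CPM, with a log2 ratio of 2.63 (1.86 to 3.50) in TAZKO, where 21 of 41 cells had a UMI. Its paralog Ifi44l had 38 UMIs in TAZKO and 0 in the other libraries, and in endothelial cells it was 0, 0, 92.3 and 0 CPM. Irf7, which drives type I interferon genes, was 287, 321, 211 and 84.2 CPM, with a log2 ratio of -1.77 (-2.22 to -1.34) in DKO. In B cells Irf7 was 57.2, 71.0, 23.0 and 33.6 CPM. TAZKO was thus high in Ifi44 and DKO low in Irf7.

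Hspa1a, Hspa1b and Dnajb1 were highest in WT. Of the immediate early and heat shock genes with at least 50 UMIs, 2 of 15, 3 of 14 and 2 of 16 were past 2-fold lower in YAPKO, TAZKO and DKO, and 1, 1 and 3 higher, against 1.09%, 2.30% and 1.33% lower and 3.40%, 4.89% and 3.98% higher over all genes. Hspa1a was 659.9, 47.4, 64.7 and 116 CPM, with log2 ratios of -3.80 (-4.29 to -3.34), -3.35 (-3.89 to -2.85) and -2.51 (-2.87 to -2.16). Hspa1b was 796, 92.7, 155 and 145 CPM and the cochaperone gene Dnajb1, which is not in that list, 132, 12.1, 42.5 and 29.0. Hspa1a was found in 28 of 34, 19 of 54, 13 of 41 and 20 of 57 cells. The difference was not limited to cDC1, since Hspa1a was 214, 2.98, 25.8 and 23.4 CPM in B cells and 217, 4.92, 62.8 and 33.9 in endothelial cells. Egr1, an immediate early gene, was 54.2, 37.5, 59.2 and 166 CPM with a log2 ratio of 1.61 (1.02 to 2.24) in DKO, where 36 of 57 cells had it. Endothelial cells had 241, 34.5, 40.3 and 30.8 CPM of Egr1, with WT highest, so that this rise in DKO was not shared by them.

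Dividing cells were present in every library. Mki67 was found in 6, 9, 9 and 11 cells, and after thinning to 5000 UMIs 18.2%, 17.0%, 17.1% and 18.2% of cells (6 of 33, 9 of 53, 7 of 41 and 10 of 55) had at least 5 UMIs of 15 division genes. The sums of these genes were 1311, 812, 1167 and 1061 CPM, with 31.6% of the WT sum in 1 cell. Against WT the log2 ratio was -0.69 in YAPKO (-0.84 to -0.54), -0.17 in TAZKO (-0.32 to -0.01) and -0.31 in DKO (-0.45 to -0.16). Of members with at least 50 UMIs, 3 of 11, 0 of 9 and 1 of 11 were past 2-fold lower and 0 higher. Over all genes 1.09%, 2.30% and 1.33% were past 2-fold lower. A difference in the share of dividing cells was not detectable at this depth.

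Past 2-fold, among genes with at least 50 UMIs in the library and WT together, YAPKO had 116 higher of 3408 (3.40%) and 37 lower (1.09%). TAZKO had 134 of 2739 (4.89%) and 63 (2.30%), and DKO 123 of 3093 (3.98%) and 41 (1.33%). The median log2 ratio over the same genes was 0.06, 0.03 and 0.05. With all chosen cells the counts were 165 higher (2.49%) and 71 lower (1.07%) of 6633 in YAPKO, 181 (3.73%) and 374 (7.71%) of 4849 in TAZKO, and 116 (2.11%) and 157 (2.85%) of 5508 in DKO. There 8 of 9 endothelial genes were past 2-fold lower in TAZKO, and the log2 ratio of their sum was 0.20, -1.47 and -0.88. All 9 were detected in each library, Clec4g or Ptprb led, and their part in the result was not tested.

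**Figure D4:**
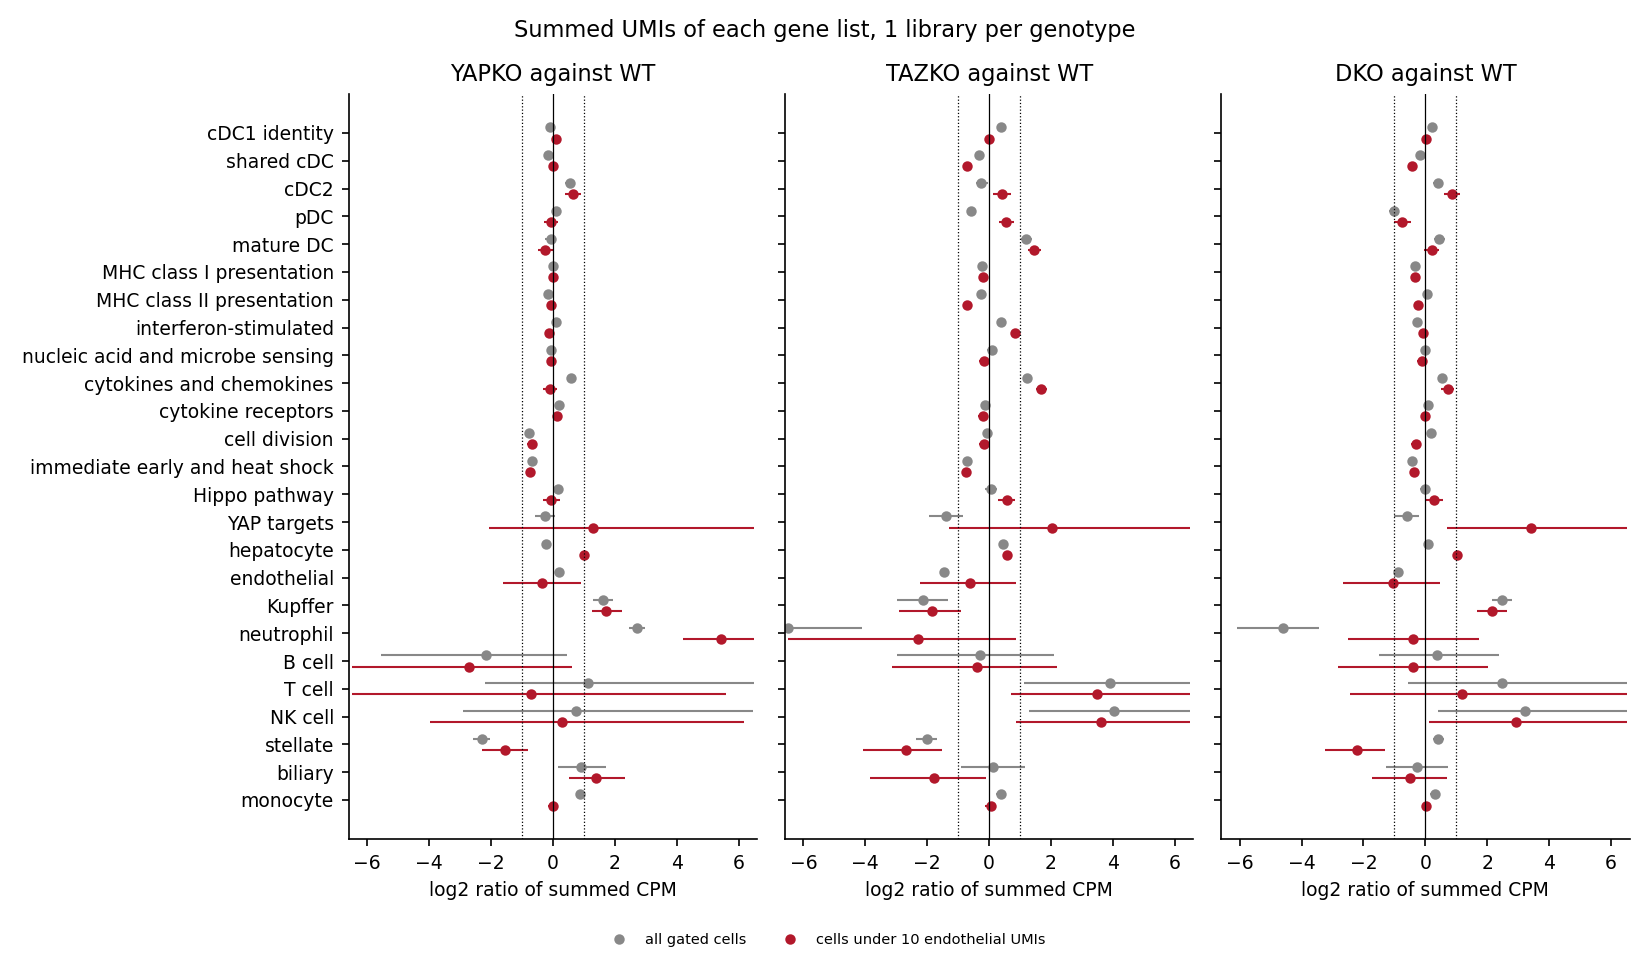
Log2 ratio to WT of the summed CPM of 25 gene lists in YAPKO, TAZKO and DKO (x axis, bars are exact 95% intervals, values beyond 6.5 drawn at the edge), for all chosen cells in grey and for cells under 10 endothelial UMIs in red. The cDC1 genes lie between -0.02 and 0.09 in red, and the class II list of TAZKO lies at -0.70.

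Many genes past 2-fold were carried by 1 cell. In YAPKO 75 of the 116 higher genes (64.7%) had at least 50% of their UMIs in 1 cell, against 95 of 1951 (4.87%) of all genes higher there. In DKO it was 32 of 123 (26.0%, against 2.28%) and in TAZKO 6 of 134 (4.48%, against 0.481%). The genes named by the rule for YAPKO show this: Wfdc18 had all 116 UMIs in 1 cell, the secreted protein gene Spp1 283 of 291, Gstm5 73 of 79, the lipocalin 2 gene Lcn2 51 of 58, complement C3 186 of 203 and the keratin gene Krt8 41 of 49. Slpi, lower in all 3 knock-out libraries, had its 200 WT UMIs in 1 cell, and Apol7c, lower in DKO, had 52 of 68 WT UMIs in 1 cell and 223 of 224 in 1 cell of YAPKO.

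Genes of other cell types were as uneven. All 11 hepatocyte genes were detected in each library, with Mup20 most abundant in WT and Alb in the others, and sums of 4478, 8903, 6721 and 9131 CPM. In YAPKO the log2 ratio was 0.99 here and -0.22 with all chosen cells. In YAPKO 1 cell held 87.6% of these UMIs, and in DKO 1 cell held 46.7%. The neutrophil sum was 9.04, 388, 1.85 and 6.90 CPM (4, 6, 1 and 1 of 7 detected, Ly6g 0 throughout), and 1 YAPKO cell held 97.4%, led by S100a9. The Kupffer sum was 79.6, 263, 22.2 and 352 CPM (10, 8, 6 and 9 of 10 detected, C1qb leading in YAPKO and DKO), and 1 DKO cell held 85.1%. Of these 10 genes Clec4f, Vsig4 and Timd4 are limited by the rule, so the sum is a description. In YAPKO 2 cells held 91 and 108 of the 238 Kupffer UMIs, and each had 2 Clec9a UMIs, 0 Xcr1 and only 12 and 10 UMIs of the 20 cDC1 genes. In TAZKO 1 cell held 136 of the 354 UMIs of the pDC list (9 of 11 detected). For the monocyte list, with a log2 ratio of 0.05 (-0.12 to 0.21) in TAZKO, 1 cell held 197 of 591. Their part in the result was not tested.

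**Figure D5:**
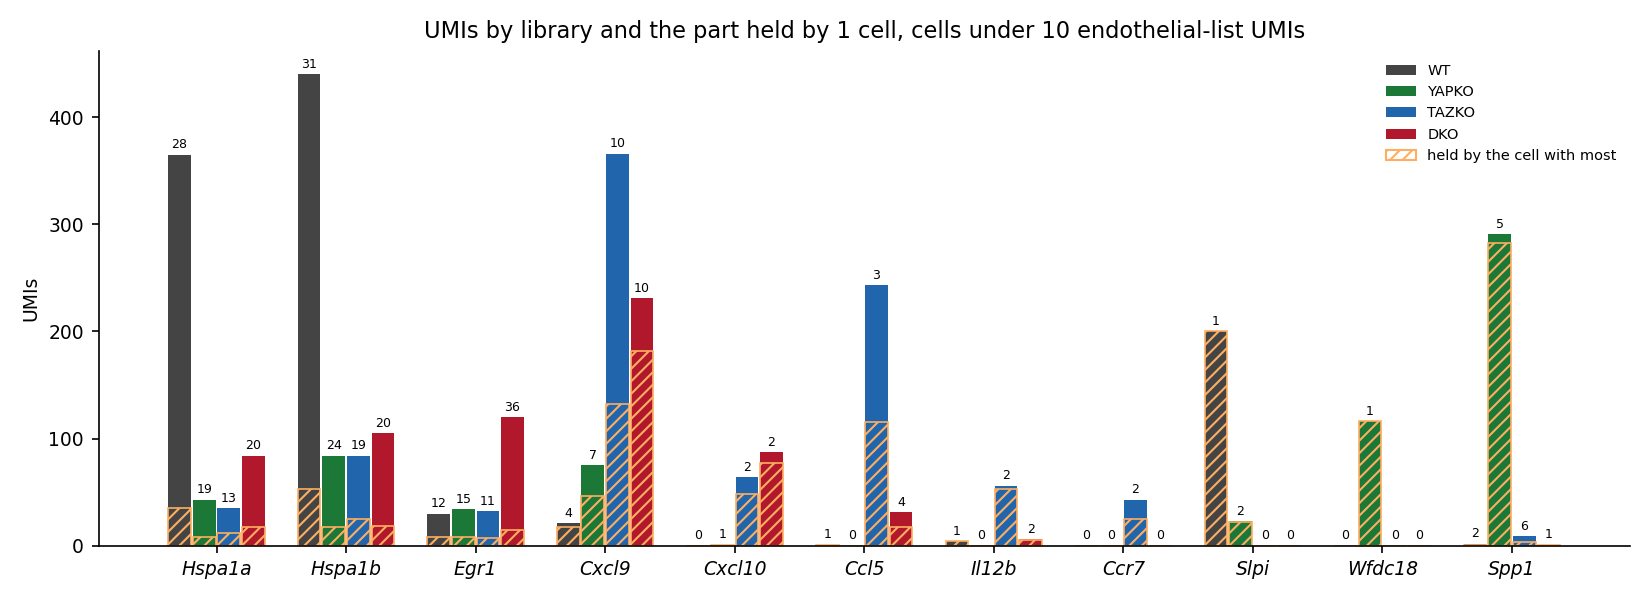
UMIs of 11 genes per library in cDC1 under 10 endothelial UMIs, with the part held by the cell with most UMIs hatched and the number of cells with a UMI above each bar. Slpi is held by 1 WT cell and Spp1 almost wholly by 1 YAPKO cell, while the UMIs of Hspa1a lie in 28, 19, 13 and 20 cells.

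Some differences were spread over many cells, and those named here were chosen after their values were seen. Ly6a, an interferon-inducible surface protein, was 456, 201, 146 and 91.1 CPM, lower in YAPKO (-1.18), TAZKO (-1.64) and DKO (-2.32), and it was 489, 559.6, 376 and 312 CPM in B cells. Fosb was higher in YAPKO (1.82, 0.84 to 2.96) and DKO (1.90, 0.90 to 3.05) at 18.1, 64.0, 62.9 and 67.6 CPM, and Klf4 at 18.1, 50.7, 31.4 and 63.5 CPM (1.49 and 1.81). TAZKO had too few UMIs of either gene for a call. Ddit4, induced by stress, was higher in YAPKO (12.7, 49.6, 12.9 and 20.7 CPM), as it was in B cells (54.0, 111, 34.0 and 57.0 CPM). The aryl hydrocarbon receptor gene Ahr was lower in YAPKO (-1.16, -1.78 to -0.56) and TAZKO (-1.77, -2.68 to -0.95) at 101, 45.2, 29.6 and 88.3 CPM. The costimulatory gene Cd86 was lower in TAZKO (188, 146, 86.9 and 160.0 CPM). S100a10 was higher in TAZKO (1.49) and DKO (1.17) at 282, 228, 789.7 and 636 CPM.

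Several genes with large ratios differed in other cell types of the same library too. Rps3a3, a near copy of the ribosomal gene Rps3a1, had 0 UMIs in cDC1 of WT and YAPKO and 1638 and 2204 in TAZKO and DKO, where the log2 ratio of Rps3a1 was -3.90 and -3.58. Rps3a3 held 0%, 0%, 92.5% and 90.8% of the pair in cDC1 and 0.0345%, 0.0399%, 90.3% and 90.7% in all kept cells. The sum of the pair in cDC1 was 3667, 3409, 3276 and 3348 CPM, with far smaller differences than either gene alone. Rps15a-ps8 (0, 5, 155 and 404 UMIs) and Rps13-ps1 (5, 5, 30 and 108 UMIs) were also higher in TAZKO and DKO, but they held only 7.79% and 17.4% of the pair with Rps15a and 1.94% and 5.86% of the pair with Rps13. Rps13-ps1 had too few UMIs in WT and TAZKO together for a call in TAZKO.

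Gm8420 was 671, 780.0, 1.85 and 629 CPM in cDC1, with 85.4%, 91.8%, 0.170% and 75.8% of B cells holding a UMI, and Rpl15 was 365, 314, 1025 and 539 CPM. Gm14094 was also near 0 in TAZKO, at 248, 227, 1.85 and 190.4 CPM in cDC1 and 209.6, 264, 0.460 and 192 in B cells. Trim12a was 72.3, 58.5, 16.6 and 1.38 CPM in cDC1 and 136, 161, 83.7 and 2.34 in B cells. Scd1, a desaturase, was 27.1, 129, 435 and 159 CPM in cDC1 and highest in TAZKO hepatocytes (2116, 5004, 6520.4 and 2572 CPM). Mup11 was 175, 5.52, 0 and 4.14 CPM in cDC1 and 6063, 540.2, 7.89 and 35.7 in hepatocytes, and Tat and Uox, enzymes of hepatocytes named by the rule for DKO, had 69 of 112 and 61 of 115 UMIs in 1 cell. Xlr was lower in YAPKO (55 UMIs in WT, 20 in YAPKO, log2 ratio -2.17, -2.99 to -1.41), with a UMI in 15 of 34 WT cells and 11 of 54 YAPKO cells. It was too rare in B cells (1.12% and 1.30% of cells) to be compared there.

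With all chosen cells the rule named further genes. Cxcl2, a neutrophil chemokine, had 1 UMI in WT and 158 in YAPKO (log2 ratio 6.46, 3.96 to 11.77), Timp2 6 and 141 (3.71) and Hamp2 1 and 50 (4.80), with 44 of the 50 in 1 cell. The neutrophil sum was 136 CPM in WT and 892 in YAPKO there (log2 ratio 2.71, 2.46 to 2.98, with 6 of 7 detected in both and S100a9 leading). In WT 1 cell held 121 of the 134 neutrophil UMIs (90.3%). In YAPKO 13 cells had at least 10 such UMIs, 12 of them cells with endothelial genes. The part of neutrophil genes in the level of Cxcl2 was not tested. Mup21 (-4.19), the antioxidant enzyme gene Sod3 (-2.99) and Igfbp3 (-2.75) were lower in YAPKO, and 1 cell held 60.4% of the WT UMIs of Sod3 and 63.4% of those of Igfbp3. In TAZKO, Mup9 was higher (5.23), Gm4951 was lower (-4.33) and the platelet factor gene Pf4 had 50 UMIs in WT and 0 in TAZKO, at least 12.2-fold lower, with 34 of the 50 in 1 cell. In DKO, Timp2 (3.86), Rgs1 (3.21) and Mat1a (2.47, with 52.9% of DKO UMIs in 1 cell) were higher, and Mup17 (-4.32), Trim30d (-5.11) and Trim12a (-5.36) were lower.

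These descriptions rest on 34 to 57 cells per library once endothelial-marker cells are set aside. With 1 mouse per genotype, a difference between libraries cannot be told apart from a difference between mice or preparations. Comparisons of the chosen cells with cDC2 and pDC hold within 4 mice of 4 genotypes. All 3 cell types were chosen by genes that also entered the counts, and these gate genes were left out of the calls but not of the summed lists of other cell types.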

How the data were processed

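The values are counts of UMIs per gene and barcode, which the authors made with Cell Ranger (6.0.1 in the labels, 4.0.0 in the matrix headers) against mm10 and deposited without normalization. The files hold 55488 genes, of which 37 are mitochondrial. Counts were summed per library and gate and given as CPM. Median depth of the chosen cells was 8797 UMIs in WT, 13425 in YAPKO, 11406 in TAZKO and 12177 in DKO. No barcode of the chosen cells was shared between libraries (9 to 26 of the kept ones were, for each pair). Doublets were not removed by a tool: the limit of 6000 genes, the genes required at 0 and the endothelial split are the only treatment.

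Between gates, 8 sums were filtered with filterByExpr, scaled by TMM and entered in edgeR quasi-likelihood F tests with library as block, and adjusted p is Benjamini-Hochberg under 0.05. Between genotypes, with 1 library each, genes with at least 50 UMIs were called past 2-fold without a test. Intervals are 95%: exact Poisson for CPM, exact conditional binomial for ratios, Clopper-Pearson for shares. A sum of 0 was set to 3 UMIs for bounds. Named genes are the 12 (cDC2) or 6 (pDC, knock-outs) with the largest fold changes per direction within the following limits. Between gates they were called, had at least 50 UMIs and differed in the same direction in all 4 libraries. For knock-outs they had at least 50 UMIs and an interval without 0, and were ranked with 1 added to each count. The 9 gate genes and the genes of lists of non-dendritic cells were left out of naming. Members and the 25 lists were chosen with earlier results of these data known. Endothelial, Kupffer, B and hepatocyte groups were set by marker UMIs (at least 10 endothelial, 5 Kupffer, 2 Cd79a UMIs, or 10% hepatocyte UMIs). The endothelial group also had no Ptprc UMI and under 10% hepatocyte UMIs, and the other groups had under 10 endothelial UMIs. Chosen cells were not removed from the endothelial and hepatocyte groups. Cells were thinned to 5000 UMIs to compare dividing shares. Versions were R 4.3.3, edgeR 4.0.16, DESeq2 1.42.0, Python 3.11.15, numpy 2.4.6, pandas 2.3.3, scipy 1.17.1 and matplotlib 3.10.9. Clusters, trajectories and cell communication were left out.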

Additional observations from a re-analysis of the deposited data

Results flagged for a closer look

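Some barcodes outside the limits on genes and mitochondrial UMIs meet the marker part of the rule and were not analysed: 4 in WT, 13 in YAPKO, 1 in TAZKO and 3 in DKO. Of these, 3, 13, 0 and 3 have over 6000 detected genes, 2, 13, 0 and 3 have at least 10 endothelial UMIs, and 3, 8, 0 and 3 have Naaa. Their median depth is 31248, 36265, 2787 and 30942 UMIs.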

How the results depend on the processing

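Alternatives changed the limits on cells, the threshold of the rule, the UMI minimum, the scaling, the method and the set of libraries, and those on endothelial genes were chosen after seeing the data, as were those on both markers for counts of genes and sums of lists (for shares they were planned). Of list sums against WT 351 were the same, 232 moved and 17 reversed, where only a sum past 2-fold with all chosen cells can count as reversed and other changes of sign are among the first 2 groups. Of named genes against WT 368 were the same and 72 moved, and all 392 values of named genes between gates were the same. Between gates, same means the sign kept at adjusted p under 0.05, and a gene not tested under an alternative gives no value. Those genes were picked by large called fold changes in the main fit, so their agreement is a description. The cause of each move was not tested. Values follow in the order WT, YAPKO, TAZKO and DKO. The share of kept cells became 0.629, 1.08, 0.521 and 0.699% at a threshold of 3 UMIs, 6.04, 6.28, 2.32 and 3.15% at 1 UMI, 0.489, 0.861, 0.475 and 0.639% with at least 1 UMI of each marker, 0.300, 0.367, 0.115 and 0.193% with 500 to 6000 UMIs in place of genes, and 0.475, 0.861, 0.475 and 0.687% under 10 endothelial UMIs. The share among cells of the 3 rules became 84.5, 68.6, 52.2 and 43.7% at 1 UMI and 33.0, 25.2, 20.4 and 15.9% with both markers. At 3 UMIs it was 41.3% in WT, 31.1% in YAPKO and 18.2% in DKO, with UMIs in place of genes 72.1% in WT, 21.7% in TAZKO and 7.83% in DKO, and under 10 endothelial UMIs 36.6% in WT and 29.7% in YAPKO. Against cDC2, DESeq2 with library in the design gave 602 genes higher and 524 lower, and a threshold of 3 UMIs gave 567 higher. With both markers the counts against pDC were 1758 and 1749. Leaving out 1 library gave 236 to 997 higher and 390 to 791 lower than cDC2, and 676 to 902 higher and 797 to 991 lower than pDC.

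Counts past 2-fold in YAPKO, TAZKO and DKO were 478, 454 and 350 higher and 238, 754 and 392 lower with at least 20 UMIs, and 73, 58 and 49 higher and 26, 197 and 64 lower with at least 100. At a threshold of 3 UMIs 46, 83 and 63 were lower. Under 10 endothelial UMIs 37, 63 and 41 were lower, and with centring 102 and 114 were higher in YAPKO and TAZKO and 41, 67 and 44 lower. With both markers 83 were higher in YAPKO, and 67 and 50 lower in TAZKO and DKO. Without the 8% deepest cells 102 were higher in YAPKO and 306 lower in DKO. List sums that reversed at a threshold of 3 UMIs were Kupffer (-0.36 in YAPKO, -0.18 in DKO), neutrophil (-0.07) and T cell (-0.74) in YAPKO, and mature dendritic cell (-0.12), YAP target (0.07) and stellate (0.54) in TAZKO. With both markers they were Kupffer (-0.52 and -0.61), T cell (-0.63), mature (-0.16), YAP target (1.34) and stellate (0.61). Under 10 endothelial UMIs T cell in YAPKO reversed on 1 UMI in each library (-0.71, -7.01 to 5.58, centred -0.77). YAP target in TAZKO reversed there on 1 UMI in WT and 4 in TAZKO (2.03, -1.30 to 7.65, centred 2.0). Sums within 2-fold that changed sign there included hepatocyte in YAPKO (from -0.22 to 0.99), plasmacytoid in TAZKO (from -0.57 to 0.55), and YAP target (from -0.61 to 3.42), stellate (from 0.41 to -2.21) and cell division (from 0.18 to -0.31) in DKO.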
